A study of Homo sapiens with 27 samples.

Results

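The control libraries of 22Rv1-DR were compared with those of DU145-DR, gene by gene. These 6 libraries, 3 for each line, were chosen by their labels and make up 6 of the 27 libraries in the series, which otherwise holds a further line and hairpins against the transcription factor GATA2. Both groups carried a short hairpin RNA labelled as a control, so neither is an unmanipulated line. The labels call every sample a Ch-CRPC cell line, that is chemotherapy-resistant, castration-resistant prostate cancer, and in the study's publications DR stands for docetaxel-resistant. Docetaxel is a taxane that stabilises microtubules. Parental, drug-sensitive lines were not analysed here.

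22Rv1 is a human prostate carcinoma line derived from a xenograft that relapsed after castration, and it responds to androgens. DU145 was derived from a brain metastasis of prostate cancer and is widely used as an androgen-independent line. Each side of the comparison is 1 resistant subline, so line of origin, genotype, selection history and culture cannot be told apart as sources of any difference. Whether the 3 libraries of a line were grown as independent cultures is not recorded in the labels. The p-values therefore refer to library-to-library spread only, and this could be technical. In bulk RNA, fewer cells that use a gene and less of its RNA per cell cannot be told apart.

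In luminal cells of the prostate, androgens induce secreted kallikreins and other differentiation genes, with FOXA1, HOXB13 and GATA2 as cofactors on DNA. Prostate cancer cells can lose this luminal programme and take up mesenchymal, basal or neuroendocrine genes instead, and resistance to taxanes is often accompanied by the efflux pump encoded by ABCB1.

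All levels below are the authors' normalised read counts. A gene was tested when it reached 10 in at least 3 of the 6 libraries, which 14242 of 23228 genes did. A gene near 0 in 1 line passes this filter only by being high in all 3 libraries of the other. The call of such a gene is nearly fixed in advance. A log2 fold change (log2FC) is the 22Rv1-DR mean minus the DU145-DR mean of log2(value + 1) and is followed by its standard error. A gene is called, or described as higher or lower, when its Benjamini-Hochberg adjusted p from limma, a linear model with shared variance, was below 0.05. Counts are not scaled to gene length, so levels are compared between lines and never between genes.

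Recovered depth was 12.16 to 16.97 M reads per control library. A single library stood apart: 22Rv1-DR control replicate 3 differed from its 2 fellow replicates by a chi-square per degree of freedom of 103.7 and 99.8, against 7.4 to 23 for the other control pairs. The first principal component, with 93.8% of the variance, separated the lines, and the second, with 3.7%, set this library at -56.36 against 33.22 and 24.72 for its fellows. Without it, 10463 genes were called in place of 9449, and the median log2FC of the 33 gene lists with at least 10 tested members moved by at most 0.47, for the collagens. Markers of other cell types varied by type. Of 10 endothelial markers 0 reached the filter, with a summed level of 7.74 to 12.2 in 22Rv1-DR and 23.4 to 28 in DU145-DR. Of 12 blood-cell markers 2 reached it (CD68 and ITGAM), with sums of 80.8 to 172 and 437 to 628, and CD3E was at 0 in every control library. Of 10 fibroblast markers 4 reached it, with sums of 1391 to 4307 in 22Rv1-DR, mostly COL1A1 and LUM, and 192 to 237 in DU145-DR. The part of such cells in any result was not tested.

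Most of the transcriptome differed between the lines. Of the genes tested, 9449 (66.3%) were called, 4945 (34.7%) higher in 22Rv1-DR and 4504 (31.6%) higher in DU145-DR. With a further requirement of a 4-fold change, 1993 genes (14%) were higher in 22Rv1-DR and 1500 (10.5%) in DU145-DR, and a 64-fold change was passed by 397 and 244. The median log2FC over all tested genes was 0.04 and the median absolute log2FC was 0.96. A called gene was the usual case, and the counts for each gene group below are to be read against these shares.

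**Figure D1:**
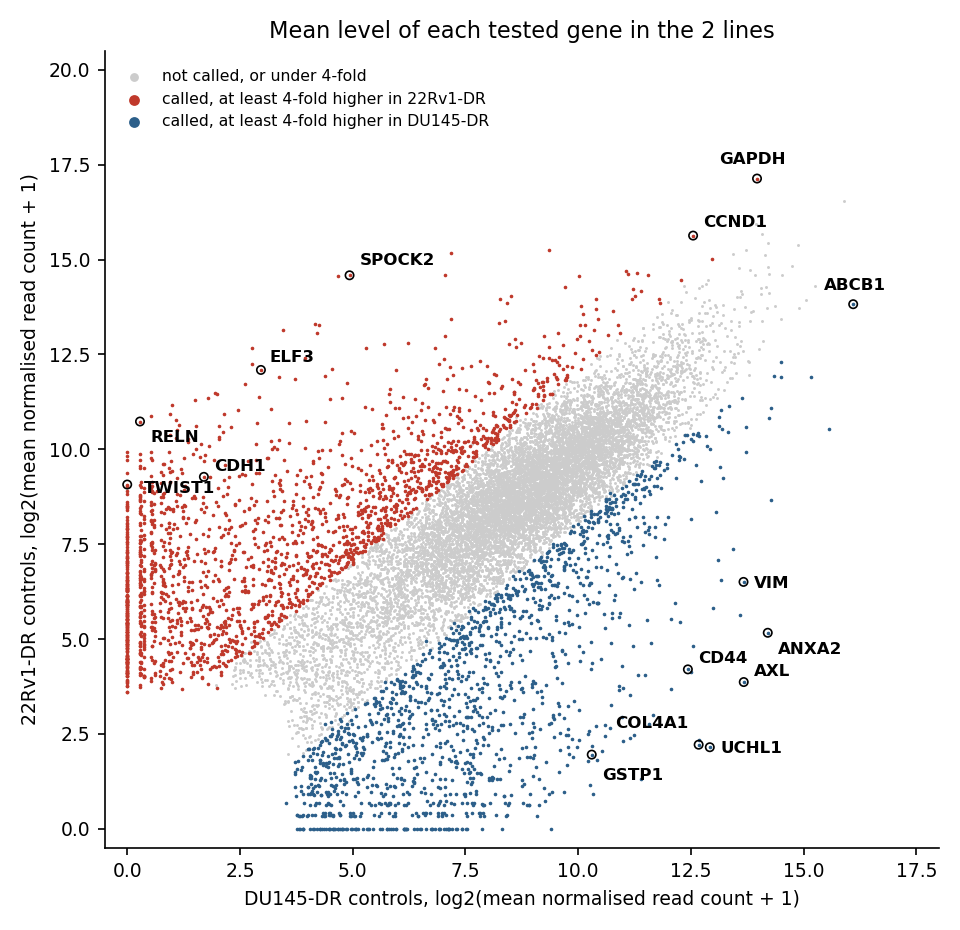
Mean normalised read count of each of the 14242 tested genes in the DU145-DR controls (horizontal) and the 22Rv1-DR controls (vertical), both as log2(mean + 1). Red and blue points are genes called and at least 4-fold higher in 22Rv1-DR (1993) or DU145-DR (1500), grey points are the rest, and ELF3, at 4361 against 6.81, lies high on the left while VIM, AXL and UCHL1 lie low on the right.

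Genes of the androgen response were mostly higher in 22Rv1-DR. The list of androgen-response genes is 32 long, and 29 were tested. 20 were higher in 22Rv1-DR, 5 were lower and 4 were not called, and 12 were at least 4-fold higher against 1 at least 4-fold lower. The list's median log2FC was 1.54, against 0.04 over all tested genes.

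The kallikreins KLK2, KLK3 and KLK4 are secreted serine proteases of prostate luminal cells, and KLK3 encodes prostate-specific antigen. KLK2 was at 663, 681 and 785 in 22Rv1-DR against 0.652, 1.43 and 1.73 in DU145-DR, with no overlap, as 10363 of all tested genes (72.8%) had none (log2FC 8.32 ± 0.27, adjusted p = 1.3e-07, limma). KLK3 was at 98.9, 121 and 93.7 in 22Rv1-DR and at 0 in all 3 DU145-DR libraries, at least 46.9-fold higher against a floor of 3 reads per library. KLK4 was at 3272, 3516 and 1701 against 4.57, 3.56 and 0.865 (log2FC 9.54 ± 0.45). None of the DU145-DR libraries overlapped the 22Rv1-DR range for any of the 3 genes. KLK2 and KLK3 are close paralogs, so reads they share may have been assigned to either. The 3 genes lie in a row of 8 consecutive tested genes, C19orf48, KLK1, KLK15, KLK3, KLK2, KLKP1, KLK4 and KLK11, each at least 4-fold higher in 22Rv1-DR. Genes below the filter were passed over in forming the row. KLK1, KLK3 and KLK11 were at 0 in DU145-DR and passed the filter only through 22Rv1-DR.

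The promoters of KLK3 and KLK2 are shown because both genes were near 0 in DU145-DR. Each run covers the 250 bases before the transcription start in RefSeq (GRCh38.p14, plus strand), at chr19:50854665-50854914 for KLK3 and chr19:50873189-50873438 for KLK2. Capitals mark the match to a spaced pair of steroid receptor half-sites, that is GAACA, 4 unspecified bases, GT, 1 unspecified base and CT, a pattern that was chosen after these sequences were seen.
KLK3: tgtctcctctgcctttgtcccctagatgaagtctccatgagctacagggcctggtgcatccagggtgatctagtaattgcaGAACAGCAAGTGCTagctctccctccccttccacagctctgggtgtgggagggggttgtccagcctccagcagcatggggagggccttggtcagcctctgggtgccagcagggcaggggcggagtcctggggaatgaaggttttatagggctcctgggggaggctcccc
KLK2: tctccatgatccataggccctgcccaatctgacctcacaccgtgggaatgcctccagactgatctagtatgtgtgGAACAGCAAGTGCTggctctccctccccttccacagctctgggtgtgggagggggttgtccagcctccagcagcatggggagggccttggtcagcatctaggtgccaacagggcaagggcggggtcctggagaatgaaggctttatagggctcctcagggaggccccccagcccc
Both promoters hold the same 14 letters, starting 169 bases before the start in KLK3 and 175 in KLK2, and the 2 runs are identical at 79.2% of 259 aligned columns. Searched on both strands, the spaced pair occurs in 64 of the 27305 RefSeq promoters (0.234%). As the pattern was taken from this pair of paralogs, their matches are not a test. The full palindrome, AGAACA, 3 unspecified bases and TGTTCT, occurs in 1 of the 27305 promoters, and the half-site AGAACA, which it contains, in 12.4% of them. A match is a description of the letters, and no binding was measured.

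FKBP5, a co-chaperone of steroid receptors that androgens and glucocorticoids both induce, was present in both lines, at 3901 ± 474 against 1335 ± 122 (SD, n = 3 each; log2FC 1.54 ± 0.16). TMPRSS2, an androgen-regulated membrane protease, stood at 231, 212 and 205 against 0 in each DU145-DR library, at least 96.8-fold. ZBTB16 and C1orf116, both induced by androgens, had log2FCs of 8.41 and 8.42.

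The 5 androgen-response genes that were higher in DU145-DR included PMEPA1, which is also a target and inhibitor of TGF-beta signalling. PMEPA1 was at 2.58, 2.98 and 4.89 in 22Rv1-DR and at 871, 720.0 and 1052 in DU145-DR (log2FC -7.64 ± 0.28, adjusted p = 1.9e-07, limma). The other four were ABCC4, CENPN, NCAPD3 and FAM105A, with log2FCs from -1.88 to -0.48. The call of FAM105A (-0.48, adjusted p = 0.0246, limma) was lost without 22Rv1-DR control replicate 2 (0.0649) and without any 1 of the DU145-DR replicates (0.06 to 0.101). EAF2, ACSL3, PPAP2A and SLC43A1 were the 4 members that were not called.

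Transcription factors of the luminal state were mostly higher in 22Rv1-DR. FOXA1, a pioneer factor that opens chromatin for hormone receptors, was at 4626, 3238 and 2439 in 22Rv1-DR against 21.5, 28.5 and 34.6 in DU145-DR (log2FC 6.85 ± 0.27). HOXB13, the prostate homeobox factor, was at 783, 677 and 354 against 2.61, 0 and 0.865 (log2FC 8.25 ± 0.50). ELF3 and GRHL2, factors of epithelial differentiation, had log2FCs of 9.12 and 8.51. Of 32 lineage factors listed, 26 were tested, 20 of them higher in 22Rv1-DR and 5 lower, and SOX9 alone was not called. The 5 lower were ETV4, ETV5, PAX6, MEIS2 and ZFPM2, of which ETV4 (log2FC -0.59, adjusted p = 0.0132, limma) was not called without DU145-DR control replicate 1 (0.0595) or 2 (0.0716). GATA2, the factor the series' hairpins target, was transcribed in both lines, at 3444, 4307 and 3052 in 22Rv1-DR against 1255, 1135 and 925 in DU145-DR, a 3.26-fold difference (adjusted p = 6.1e-05, limma).

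Luminal markers were mostly higher in 22Rv1-DR. Of 18 listed, 14 were tested: 12 were higher in 22Rv1-DR, all by at least 4-fold, PSCA was lower and CD24 was not called. The median log2FC was 4.88, or 4.44 with the 2 members at 0 in DU145-DR set to their bound. The luminal keratins KRT8 and KRT18 were present in both lines, with KRT8 at 22726 ± 3751 in 22Rv1-DR and 4949.8 ± 1424 in DU145-DR and KRT18 at 8252 ± 2402 and 1608 ± 180.5, so both lines carried epithelial transcripts. FOLH1, which encodes prostate-specific membrane antigen, was at 349, 292 and 249 against 0 in every DU145-DR library. AGR2, a secretory-pathway disulfide isomerase, was at 845 ± 284 in 22Rv1-DR with 1 read in each of 2 DU145-DR libraries, a ratio of 1691 (95% counting interval 468 to 13973).

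Basal markers had the opposite sign. Of 23 listed, 14 were tested, 11 were higher in DU145-DR and 1 higher in 22Rv1-DR, with a median log2FC of -3.24. CD44, the hyaluronan receptor used to mark basal and stem-like prostate cells, was at 6.88, 21.8 and 23.6 in 22Rv1-DR against 4982, 5373 and 6241 in DU145-DR (log2FC -8.39 ± 0.40). The laminin-332 receptor subunit ITGA6 (log2FC -6.49) and the laminin chain LAMA3 (-8.23) were also far lower in 22Rv1-DR. The basal keratins KRT5 and KRT14 and the basal regulator TP63 did not reach the filter in either line, with means below 1, so neither line carried the defining basal genes. KRT7 was the exception in direction, at 58.5, 279 and 275 in 22Rv1-DR against 33.9, 46.3 and 21.6 (log2FC 2.31 ± 0.59, adjusted p = 0.00777, limma).

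**Figure D2:**
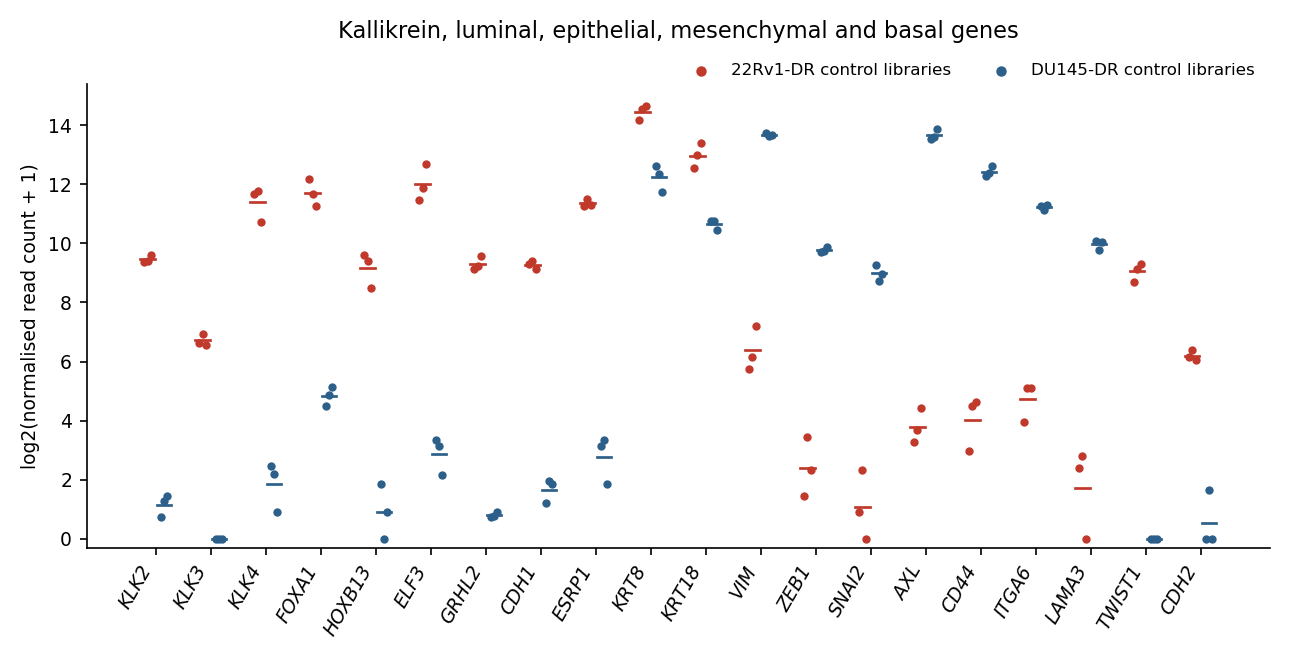
Normalised read counts, as log2(value + 1), of 20 genes in each of the 3 22Rv1-DR (red) and 3 DU145-DR (blue) control libraries, with a line at each group's mean of the log2 values. The kallikreins and the luminal and junction genes on the left are higher in 22Rv1-DR, the genes from VIM to LAMA3 are higher in DU145-DR, and TWIST1 and CDH2 at the right end are mesenchymal genes that are higher in 22Rv1-DR.

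Cell-junction genes were mostly higher in 22Rv1-DR. CDH1, which encodes E-cadherin, the adhesion receptor of epithelial cells, was at 623, 672 and 558 in 22Rv1-DR and at 1.3, 2.85 and 2.59 in DU145-DR (log2FC 7.60 ± 0.27, adjusted p = 1.9e-07, limma). ESRP1, a splicing factor of epithelial cells, ST14, a membrane protease of epithelia, and CLDN7, a tight-junction claudin, had log2FCs of 8.58, 8.62 and 8.33. Of 29 junction genes 28 were tested, 22 were higher in 22Rv1-DR and 2 were lower, with a median log2FC of 3.27. The lower ones included the scaffold protein TJP1 (904 ± 89.1 against 2976 ± 258). The desmosomal cadherin DSG2 was at 4980.4 and 5129 and was not called.

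Most mesenchymal genes were higher in DU145-DR. Of 31 mesenchymal genes 26 were tested, 19 were higher in DU145-DR and 6 higher in 22Rv1-DR, and the median log2FC was -4.28. VIM, the intermediate filament of mesenchymal cells, was at 53.3, 70.4 and 146 in 22Rv1-DR and at 13595, 12568 and 12870.4 in DU145-DR. AXL, a receptor kinase for GAS6, was at 8.6, 11.9 and 20.4 against 11857, 12466 and 14856, a 958-fold difference (log2FC -9.88 ± 0.28). The repressors of E-cadherin ZEB1 and SNAI2 were also higher in DU145-DR, with log2FCs of -7.37 and -7.91. For each of these 4 genes the highest 22Rv1-DR library lay far below the lowest DU145-DR library.

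The 6 mesenchymal genes that were higher in 22Rv1-DR included the transcription factor TWIST1, at 412, 562 and 636 in 22Rv1-DR and at 0 in all 3 DU145-DR libraries, at least 241-fold. CDH2, which encodes N-cadherin, was at 70.5, 82.3 and 66 in 22Rv1-DR against 0, 2.14 and 0. FN1, which encodes fibronectin, was at 5215, 3755 and 4583 against 247, 140.4 and 126 (log2FC 4.76 ± 0.26). These genes are commonly listed together with VIM and ZEB1, and here they were higher in the line with E-cadherin transcript. The other three were CALD1, LOX and ACTA2, with log2FCs of 4.55, 1.10 and 1.38.

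Annexins, S100 proteins and caveola components, which work at the plasma membrane and the submembrane skeleton, were mostly lower in 22Rv1-DR. Of 26 listed 21 were tested, 19 were higher in DU145-DR, and S100P alone was higher in 22Rv1-DR. AHNAK, a scaffold protein that binds annexin 2 with an S100 partner, was not called, at 11042, 10445 and 36408 against 16613, 17011 and 17253, with the highest value in the library that stood apart, and without that library it was lower (log2FC -0.66, adjusted p = 0.00375, limma). ANXA2 was at 24.9, 39.7 and 39.9 in 22Rv1-DR and at 20106, 19244 and 17316 in DU145-DR, a 542-fold difference. EHD2, a caveola-associated ATPase, was at 4.58 ± 2.70 against 2415 ± 173. S100P was at 240.0, 592 and 239 in 22Rv1-DR against 0, 0 and 2.59. The 5 genes S100A6, S100A4, S100A3, S100A2 and S100A16 are consecutive among the tested genes, with genes below the filter passed over. Each of them was at least 4-fold higher in DU145-DR.

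Called matrix genes were mostly higher in DU145-DR. Of 28 collagens and matrix glycoproteins tested, 17 were higher in DU145-DR, 5 were higher in 22Rv1-DR and 6 were not called. The median log2FC was -1.40, which became -1.87 without 22Rv1-DR control replicate 3. COL4A1, a basement-membrane collagen chain, was at 3.44, 0.992 and 6.52 in 22Rv1-DR against 6518, 6036 and 7030.3 in DU145-DR (log2FC -10.65 ± 0.42). LAMA1, a laminin chain, had 3 reads in all in 22Rv1-DR and a mean of 686 ± 163 in DU145-DR, a ratio of 761 (95% counting interval 260.0 to 3691). The fibrillar collagen COL1A1 was instead higher in 22Rv1-DR, at 706, 966 and 3965 against 179, 146 and 147 (log2FC 3.15 ± 0.55, adjusted p = 0.00101, limma). The highest value is that of the library that stood apart, and without it the log2FC was 2.39. LUM, a matrix proteoglycan, was at 661, 532 and 314 in 22Rv1-DR and had 2 reads in all in DU145-DR.

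**Figure D3:**
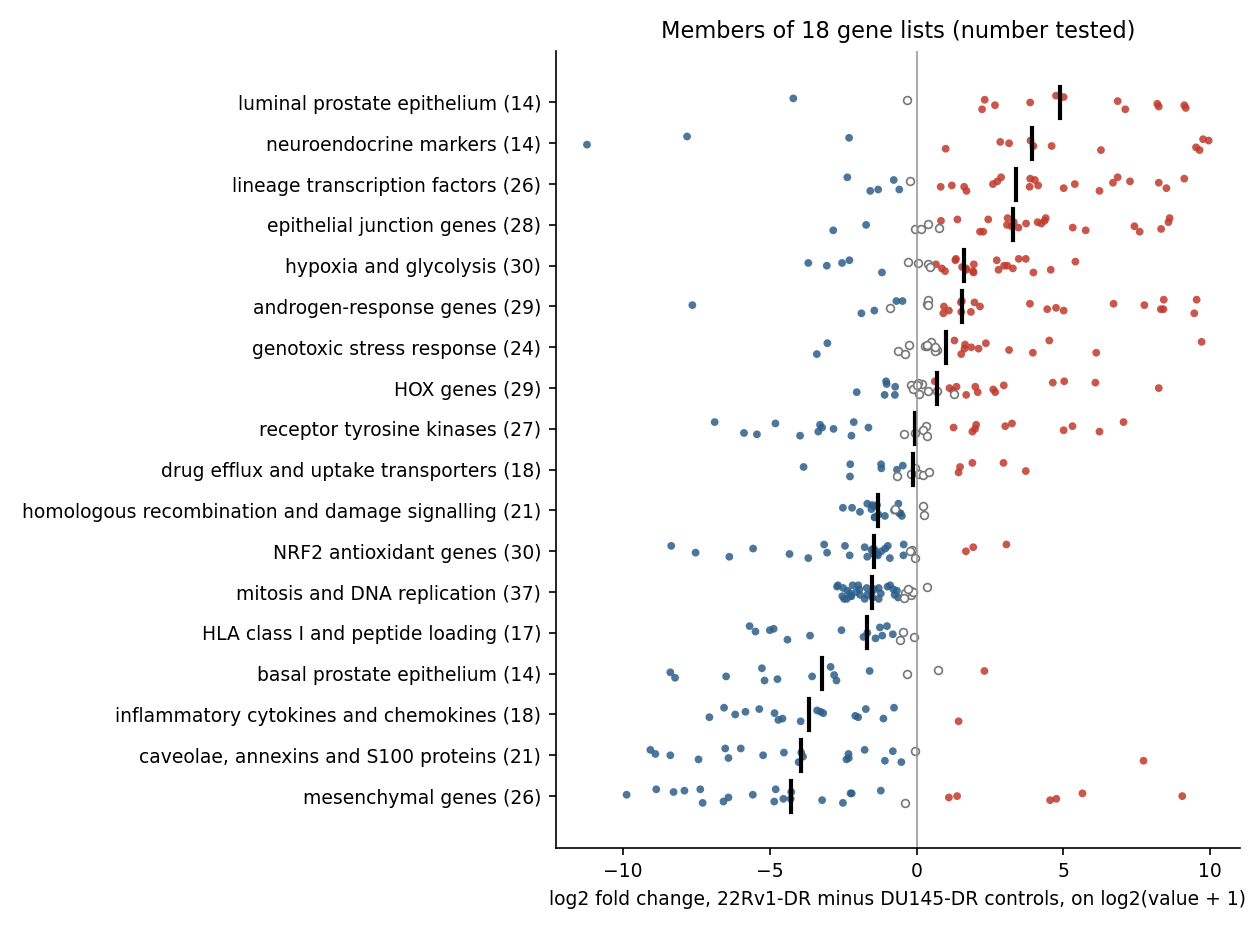
Log2 fold change of each tested member of 18 gene lists, 22Rv1-DR minus DU145-DR controls, with the number tested in parentheses. Filled red and blue points are called higher in 22Rv1-DR or DU145-DR, open points are not called, black bars are list medians, and the lists run from the luminal genes (median 4.88) at the top to the mesenchymal genes (median -4.28) at the bottom.

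Most tested neuroendocrine markers were higher in 22Rv1-DR, with a few large differences the other way. All 14 tested members of 22 listed were called, 11 higher in 22Rv1-DR and 3 higher in DU145-DR. Members near 0 in 1 line, such as SRRM4, CHGB and UCHL1, passed the filter only through the other line. The share called is therefore not a result about these genes. The median log2FC was 3.93, or 3.77 with the 1 member at 0 in 1 line set to its bound. SRRM4, a splicing factor of neurons and neuroendocrine prostate cancer, was at 3017, 2521 and 1983 in 22Rv1-DR against 3.91, 0.713 and 0.865 in DU145-DR (log2FC 9.95 ± 0.41). CHGB, a granin of secretory granules, was at 1526, 1623 and 1660.2 against 1.96, 0 and 1.73, and the granin SCG3 and the synaptotagmin SYT4 were likewise near 0 in DU145-DR. The lineage factors NEUROD1 and INSM1 and the granin CHGA did not reach the filter, with means below 5 in both lines. UCHL1, a ubiquitin hydrolase of neurons, had the largest fall of all tested genes in 22Rv1-DR, at 0, 2.98 and 7.34 against 7525, 8640.5 and 7080.4 (log2FC -11.23 ± 0.65). The adhesion molecule NCAM1, at 2.95 ± 0.498 against 887 ± 75.8, and the granin-family chaperone SCG5 were the other members higher in DU145-DR.

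Some transcripts of 1 line were all but missing from the other. Genes with at most 3 reads in each library of one line and a mean of at least 100 in the other numbered 248 for 22Rv1-DR and 123 for DU145-DR, and 54 and 23 of them were at 0 in every library of the other line. Those of 22Rv1-DR included CPLX2, a regulator of synaptic vesicle release, RELN, an extracellular signalling protein of the brain, and SPINK1, a trypsin inhibitor that marks a subset of prostate cancers. CPLX2 was at 1932, 1969 and 1738 with 2 reads in all in DU145-DR, a ratio of 3832 (95% counting interval 1060.4 to 31649). SPINK1 was at 2342, 2111 and 1387 against 1.96, 0 and 0.865. Those of DU145-DR included GRAMD1B, a sterol transfer protein, at 2354, 2435 and 3261 against 0.86, 1.98 and 1.63, and the transcription factor RUNX1, at 712, 692 and 895 against 0.86, 2.98 and 1.63. LY6K was at 796, 678 and 545 in DU145-DR and at 0 in every 22Rv1-DR library, at least 252-fold.

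Cancer-testis antigens are normally limited to germ cells, and several were close to absent in 1 line. Of 26 listed, 12 were tested and all were called, 9 higher in 22Rv1-DR and 3 in DU145-DR, while 7 were at 0 in all control libraries. Of the 12 tested, 5 were at 0 throughout 1 line and passed the filter only through the other. The share called is therefore not a result about these genes. MAGEA4 was at 2388, 2346 and 2179 in 22Rv1-DR against 0, 2.14 and 0.865, and CTAG2 at 699, 922 and 1297 against 0 throughout, at least 436-fold. MAGEB2 had the opposite direction, at 0 in 22Rv1-DR and at 90, 66.3 and 52.8 in DU145-DR, and DDX43 and PRAME were the other 2. MAGEA family members are near-identical in parts, so how reads were split among them is uncertain.

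Drug transporters were higher in either line, and the pump most often tied to taxane resistance was higher in DU145-DR. ABCB1, the efflux pump for taxanes also called P-glycoprotein, was high in both lines, at 14950.1, 12379 and 16129 in 22Rv1-DR and at 59596, 69595 and 81503 in DU145-DR. DU145-DR was 4.85-fold higher with no overlap (log2FC -2.27 ± 0.24, adjusted p = 4.5e-05, limma). Of 18 tested transporters 5 were higher in 22Rv1-DR and 7 in DU145-DR, a called share of 66.7% that is close to the 66.3% of all genes. ABCG2, another multidrug pump, was higher in 22Rv1-DR (110.4 ± 25.2 against 7.58 ± 2.61) and ABCC3 in DU145-DR (247 ± 7.1 against 1188 ± 61.5). ABCC1 was at 2011 ± 319 and 2079 ± 189 and was not called.

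Genes next to ABCB1 also differed between the lines. In the order of the RefSeq gene table, the genes from GRM3 to ABCB1, with KIAA1324L, DMTF1, C7orf23, CROT and ABCB4 among them, form an unbroken row of 8 measured genes that were each at least 4-fold higher in DU145-DR. KIAA1324L was at 48599 ± 2433 in DU145-DR against 1485 ± 90.8 in 22Rv1-DR, and C7orf23 at 12311 ± 838 against 48.5 ± 12.3. The next gene, RUNDC3B, was reversed, at 3.09 ± 1.28 in DU145-DR and 1229.5 ± 266 in 22Rv1-DR (log2FC 8.26). DBF4, a regulator of replication origin firing 2 places further on, was at 19979 ± 4191 in DU145-DR against 401 ± 36.7. Another row of 8, from C7orf63 to CYP51A1, was at least 4-fold higher in 22Rv1-DR, and the androgen-response genes STEAP1 and STEAP2 lie between the rows, at log2FCs of 1.85 and 1.51. DNA copy number was not measured.

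Taxanes bind tubulin, and tubulins and their regulators were mixed. Of 21 tested, 6 were higher in 22Rv1-DR and 10 in DU145-DR, with a median log2FC of -0.46. The microtubule regulators STMN3 (3119.9 ± 1104 against 101 ± 21) and MAP2 (2160.2 ± 142 against 163 ± 12) were higher in 22Rv1-DR, and the beta-tubulin TUBB4 was higher in DU145-DR (46.2 ± 18.2 against 420.2 ± 84.2). TUBB3, the beta-tubulin isotype most often tied to taxane resistance, was at 1416 and 1267 and was not called.

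Receptor tyrosine kinases had large differences in both directions. Of 27 receptor tyrosine kinases tested, 10 were higher in 22Rv1-DR and 12 in DU145-DR, 7 and 11 of them by at least 4-fold, with a median log2FC of -0.06. ERBB4, a neuregulin receptor, was at 232, 118 and 200.5 in 22Rv1-DR with 2 reads in all in DU145-DR, a ratio of 382 (95% counting interval 105 to 3164). MET, the hepatocyte growth factor receptor, was at 65.4, 47.3 and 77.4 against 855, 979.5 and 1162. EGFR was present in both lines and 3.08-fold higher in DU145-DR. ROR2, a WNT5A receptor, was at 0 in 22Rv1-DR and at 92, 135 and 129 in DU145-DR.

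In the insulin-like growth factor axis, IGF1R was higher in DU145-DR and INSR in 22Rv1-DR. IGF1R, the receptor for IGF1 and IGF2, was at 19.8, 45.6 and 22.8 in 22Rv1-DR and at 1432, 1100.0 and 1184 in DU145-DR (log2FC -5.44 ± 0.31). INSR, the insulin receptor, was at 1276, 1185 and 2121 against 386, 355 and 342, and its adaptor IRS1 at 618 ± 122 against 50.8 ± 13.7, both higher in 22Rv1-DR. IGFBP2, a binding protein of the ligands, was at 374, 542 and 622 in 22Rv1-DR with 1 read in all in DU145-DR, a ratio of 2100.2 (95% counting interval 376 to 83002). The ligand IGF2 was at 96.5 ± 18.4 against 125 ± 32.7 with overlapping libraries, and it was not called (adjusted p = 0.262, limma).

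Every called gene of mitosis and DNA replication was lower in 22Rv1-DR. Of 37 mitosis and replication genes, all tested, 30 were higher in DU145-DR, 0 were higher in 22Rv1-DR and 7 were not called, with a median log2FC of -1.53; without 22Rv1-DR control replicate 3 the counts were 31 and 1. MKI67, a marker of cycling cells, was at 1899.8, 1065 and 949 in 22Rv1-DR against 5107, 6645 and 8009 in DU145-DR. MCM6, a subunit of the replicative helicase, was at 624, 428 and 524 against 3314, 3073 and 3866 (log2FC -2.71 ± 0.18, adjusted p = 2.8e-06, limma). CDK1 was among the genes not called, at 1609.9 ± 252 and 1842 ± 111. Of 21 genes of homologous recombination and damage signalling, 18 were higher in DU145-DR and 0 in 22Rv1-DR, among them BRCA2 (112 ± 44 against 617 ± 108). Growth rate was not recorded in the labels.

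Regulators of entry into the cell cycle were higher in either line. Of 25 genes of RB1, its E2F partners, cyclins, CDKs and CDK inhibitors, all tested, 10 were higher in 22Rv1-DR and 13 in DU145-DR, with 7 and 1 at least 4-fold and a median log2FC of -0.60. CCND1, the cyclin that activates CDK4 and CDK6, was at 58217, 42232 and 51709 in 22Rv1-DR against 6092, 5522 and 6369 in DU145-DR (log2FC 3.07 ± 0.21). CDK6 was 10.9-fold and the CDK inhibitor CDKN1A 9.05-fold higher in 22Rv1-DR. RB1, the shared target of CDK4 and CDK6, was at 802 ± 82.4 and 1214 ± 89.4. The inhibitor CDKN2A was at 525 ± 130.4 and 1117 ± 250.1, and both genes were higher in DU145-DR. Of the E2F transcription factors listed, all were called and higher in DU145-DR, with E2F3, at 123, 76.4 and 64.4 against 489, 521 and 653, the list's only member at least 4-fold higher there (log2FC -2.69 ± 0.27). DU145 is known for a truncated RB1 protein, and transcript levels do not show protein function.

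CDKN1A belongs to a list of genes that genotoxic stress induces, and most called members of that list were higher in 22Rv1-DR. Of 24 tested, 12 were higher in 22Rv1-DR, 2 were lower and 10 were not called. The called share of 58.3% was below the 66.3% of all tested genes. GDF15, a stress cytokine, was at 7316, 10840.1 and 9219 against 12.4, 7.84 and 9.51 (log2FC 9.71 ± 0.22), and BBC3, a pro-apoptotic gene, at 764, 1363 and 1518 against 55.4, 49.2 and 45. MDM2, which encodes a ubiquitin ligase, was 3.15-fold higher in 22Rv1-DR.

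Mismatch repair genes differed in both directions. Of 10 tested genes 3 were higher in 22Rv1-DR, 4 were lower and 3 were not called. MSH6, which recognises mispaired bases, was at 654 ± 103 in 22Rv1-DR against 2672 ± 206 in DU145-DR (log2FC -2.04).

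Antioxidant genes governed by NRF2 were mostly lower in 22Rv1-DR. Of 30 tested, 24 were higher in DU145-DR and 3 in 22Rv1-DR, with a median log2FC of -1.45. GSTP1, a glutathione transferase often silenced in luminal prostate cancer, was at 2.58, 1.98 and 4.08 in 22Rv1-DR and at 1269, 1504 and 1011 in DU145-DR (log2FC -8.36 ± 0.28). NQO1, a quinone reductase, was at 322, 296 and 245 against 6419, 5461 and 5496. GSTM1 was at 0 in 22Rv1-DR and at 147, 75.6 and 50.2 in DU145-DR. The 3 that were higher in 22Rv1-DR were GSTA4, GSTM2 and AKR1C2, the last of which has near-identical paralogs.

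Glycolysis and hypoxia-response genes were mostly higher in 22Rv1-DR. Of 30 tested, 21 were higher in 22Rv1-DR, 10 of them by at least 4-fold, 5 were lower and 4 were not called, and the median log2FC was 1.62. HK2, the inducible hexokinase, was at 9581, 13513 and 27446 against 289, 352 and 452 (log2FC 5.41 ± 0.36, adjusted p = 2.7e-06, limma), and 4.98 without replicate 3. GAPDH, a glycolytic enzyme that is often used as a reference gene, was at 120172, 212544 and 98477 in 22Rv1-DR against 16446, 17913 and 13693 in DU145-DR, an 8.97-fold difference. The isozymes ALDOC, ENO2 and PFKFB4 had log2FCs of 4.57, 3.98 and 3.72. PFKP, the platelet isozyme of phosphofructokinase, was the reverse, at 472, 664 and 1099 against 8338, 9315 and 9649. PKM2 and ENO1 were not called, although ENO1 was (log2FC 0.65, adjusted p = 0.0486) without 22Rv1-DR control replicate 3. The factors HIF1A and EPAS1 were themselves lower in 22Rv1-DR, with log2FCs of -1.18 and -2.54, and oxygen and cell density are not given in the labels.

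**Figure D4:**
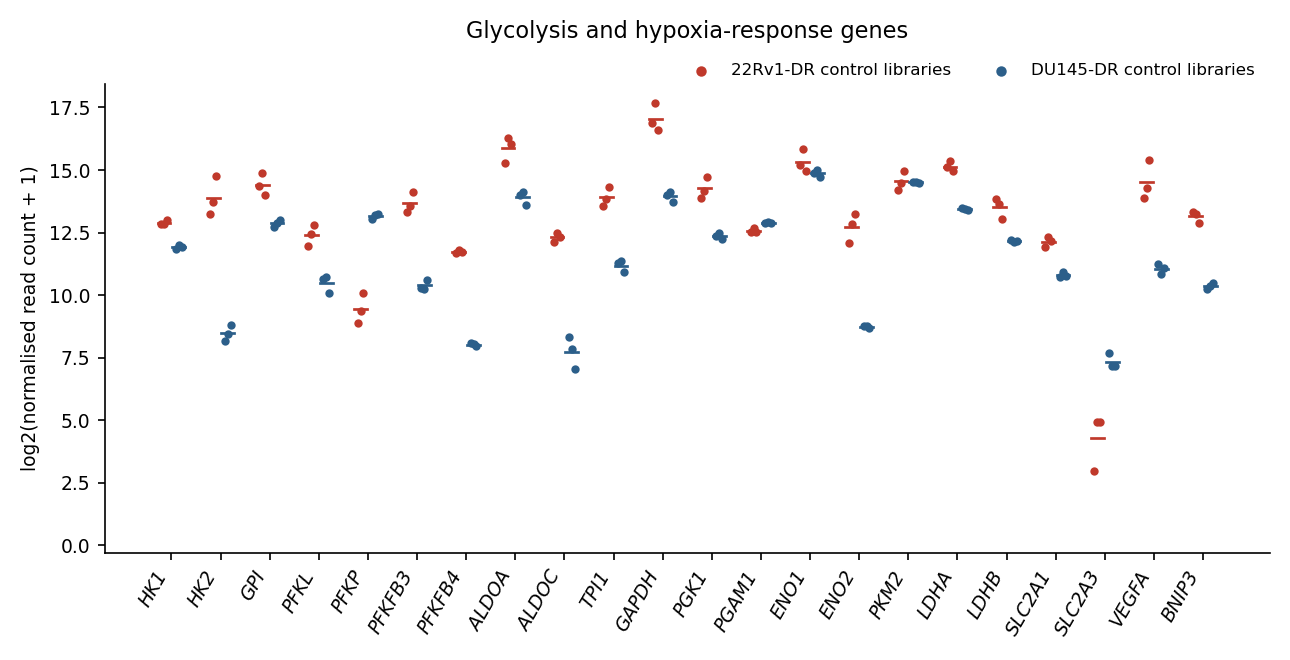
Normalised read counts, as log2(value + 1), of 22 glycolysis and hypoxia-response genes in each of the 3 22Rv1-DR (red) and 3 DU145-DR (blue) control libraries, with a line at each group's mean of the log2 values. Most genes are higher in 22Rv1-DR, with HK2 showing the widest gap (log2FC 5.41), while PFKP and SLC2A3 are higher in DU145-DR and PGAM1, ENO1 and PKM2 were not called.

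Genes of antigen presentation and inflammatory signalling were mostly lower in 22Rv1-DR. Of 17 class I and peptide-loading genes tested, 14 were higher in DU145-DR and 0 in 22Rv1-DR. HLA-B was at 40.4, 101 and 92.9 in 22Rv1-DR against 3027, 2643 and 1617 in DU145-DR, and NLRC5, the transactivator of class I genes, at 2.94 ± 0.341 against 202 ± 17.8. HLA genes are polymorphic and alike, so counts against one reference are uncertain. Of 18 cytokine and NF-kappaB genes tested, all were called and 17 were higher in DU145-DR. Among them, 3 were at 0 throughout 1 line and passed the filter only through the other, so their calls are not a test. CCL20, a chemokine, was at 0 in 22Rv1-DR and at 75, 75.6 and 64 in DU145-DR, and IL18 was at 0, 2.98 and 0 against 210.0, 203 and 219. CXCL16 was the only one of the 18 that was higher in 22Rv1-DR (917, 1109 and 965 against 383, 349 and 376).

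Interferon-stimulated genes, which often move with class I genes, had a called share of 65.2%, near that of all genes. Of 23 tested, 10 were higher in 22Rv1-DR and 5 in DU145-DR. ISG15, a ubiquitin-like modifier, was at 631, 836 and 2098 in 22Rv1-DR against 59.4, 48.5 and 28.5 in DU145-DR, with the highest value in the library that stood apart (log2FC 4.54, and 4.03 without it). IFI44L was at 95.5, 70.4 and 51.3 against 0, 0.713 and 1.73.

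Developmental signalling genes showed large differences of single members without a shared direction. SMO and GLI3, the transducer and a transcription factor of Hedgehog signalling, were at 2.71 ± 1.15 and 2.20 ± 2.53 in 22Rv1-DR against 467 ± 56.6 and 356 ± 50.2 in DU145-DR. Of 31 Notch, Hedgehog and WNT genes tested, 12 were higher in 22Rv1-DR and 13 in DU145-DR, with a median log2FC of 0.04, which was -0.19 without 22Rv1-DR control replicate 3. BMP2 and ID4 were higher in 22Rv1-DR (log2FC 7.43 and 7.27), while the TGF-beta receptor TGFBR1 was at 60.5 ± 10.5 against 1368 ± 32.1. The cholesterol and fatty acid genes were mixed, with 6 higher, 11 lower and 11 not called of 28.

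The lines were also compared in libraries that the comparison above did not use, those carrying shGATA2a or shGATA2b, with 3 per line and hairpin. These libraries come from the same sublines, so shared calls there do not extend the difference to other lines. They carry hairpins against GATA2, so the contrast is not identical to that between controls. With shGATA2a, 10836 of 14300 tested genes (75.8%) were called, and with shGATA2b 10768 of 14219 (75.7%). Of the 9449 genes called between controls, 8680 (91.9%) were called in the same direction with shGATA2a, which is 80.1% of the calls there, and 19 in the opposite direction. For shGATA2b these were 8756 (92.7%, and 81.3% of the calls there) and 6. Of the 3493 genes with a 4-fold difference between controls, 3400 and 3380 were called in the same direction, 0 in the opposite one, and 3124 and 3097 again passed 4-fold, where 25.9% and 25.1% of all tested genes did so in either direction. FOXA1 had log2FCs of 6.88 and 6.67 in the hairpin libraries against 6.85 in controls, and ABCB1 -2.23 and -2.23 against -2.27. KRT7 was at 0.71 and 0.88 against 2.31.

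**Figure D5:**
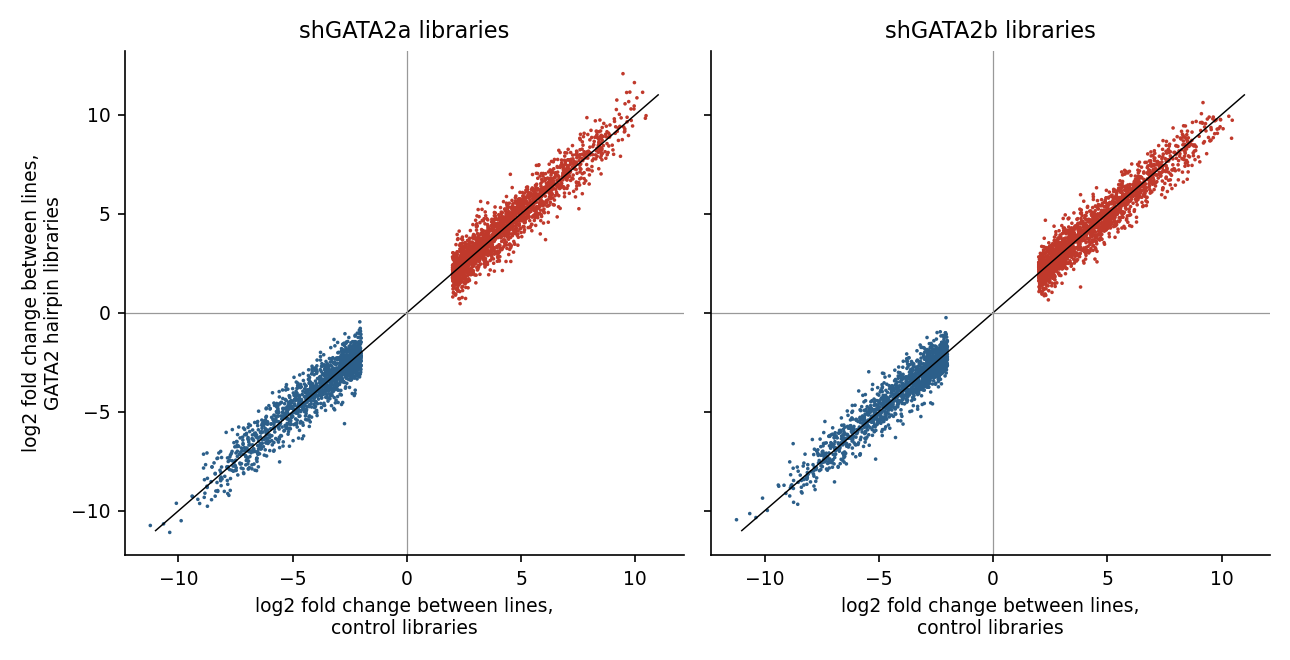
Log2 fold change between the lines in the shGATA2a (left) and shGATA2b (right) libraries against the same fold change in the control libraries, for genes called and at least 4-fold different between controls and tested in that arm. The diagonal marks equal values, red genes are higher in 22Rv1-DR controls and blue genes in DU145-DR controls, and 0 of the 3413 and 3391 genes plotted have the opposite sign.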

How the data were processed

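Total RNA was isolated with a Qiagen RNeasy Mini kit and sequenced on Illumina libraries, per the labels' protocols. Per the submitters' processing notes, TopHat2 2.0.9 and Cufflinks 1.3.0 were used with hg19. The sources used here do not name the counting program, the scaling tool or the strand setting, so overlapping and antisense genes cannot be told apart. The deposited table holds 23228 gene symbols for 27 libraries, with 0 value columns that lacked a sample. Its values are the authors' normalised signal: within a library they are whole multiples of 1 step, as read counts divided by a size factor are. Dividing by the step gave whole reads for 99.856% of 99154 values above 0 in the 6 controls, within 0.005 reads. The other 143 values lie in 54 genes, 116 of them in 22Rv1-DR libraries, and touch GATA2, KLK3, TMPRSS2, RELN, IGF2, MET and CDK1 among the genes named.

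The main test was limma 3.58.1 (R 4.3.3) with a mean-variance trend on log2(value + 1), on the 6 controls and without covariates, with Benjamini-Hochberg adjustment over all tested genes. The count tests edgeR 4.0.16 and DESeq2 1.42.0 on recovered reads were alternatives and called 9473 and 9728 genes. The exact permutation test of 3 against 3 libraries cannot go below 0.1. On simulated data with 14242 genes, 53 of 100 genes changed 2-fold and 99 of 100 changed 4-fold were recovered. There were 15 false calls. No other genes were changed there, and the changed genes were drawn from those with higher means. In the data 66.3% of tested genes were called, so the simulated counts do not give the power or error of this comparison. Intervals are 95% exact conditional (Poisson) counting intervals, and these and the floor of 3 reads cover counting error only. SDs are between libraries.

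The gene lists, the comparison and the rules were chosen with earlier results of these data known, so no list is independent evidence of its direction. The text names members of the androgen-response, luminal, basal and lineage factor lists, the 15 genes with the largest change each way, up to 5 called and 2 uncalled members of every other list, and up to 10 genes per line detected in 1 line only. Y-linked genes and some further genes that this rule takes are not reported here by name, and the latter stay in the counts of their lists. Outside the rule, and chosen after their values were seen, are VIM, ZEB1, FN1, CDH2, CALD1, LOX, ACTA2, TJP1, INSR, IRS1, IGF2, MET, MKI67, CDK1, RB1, CDKN2A, E2F3, MDM2, GAPDH, HIF1A, EPAS1, NCAM1, SCG5, MAGEB2, DDX43, PRAME, CXCL16, TUBB3, GSTA4, GSTM2, AKR1C2, markers named only as below the filter, PGAM1, SLC2A3, and the genes named as neighbours in a run. Neighbour order comes from the RefSeq gene table, in which 13699 of 14242 genes (96.2%) were found. Runs were formed from these tested genes only, so genes below the filter that lie between them were passed over. Of runs of at least 4 such neighbours, 36 were at least 4-fold higher in 22Rv1-DR and 22 in DU145-DR. Both rows beside ABCB1 were also unbroken when all placed genes of the deposited table were kept. A comparison of promoter composition between gene groups was void because under 80% of the genes had a promoter in the table.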

Additional observations from a re-analysis of the deposited data

How the results depend on the processing

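A test against a 2-fold change in place of 0 (limma treat) called 4253 genes, 2395 higher in 22Rv1-DR and 1858 in DU145-DR. Genes detected in 1 line only numbered 383 and 187 with a minimum mean of 50 in the other line, and 143 and 58 with 200. Leaving out each library in turn gave 8213 to 10463 called genes, 4376 to 5427 higher in 22Rv1-DR and 3835 to 5036 in DU145-DR, with 1930 to 2062 and 1470 to 1548 at least 4-fold, and 10023 to 10707 and 10174 to 10674 in the shGATA2a and shGATA2b libraries. All other settings stayed within 1.5 times. Quantile normalisation turned the split to 4643 higher in 22Rv1-DR and 4839 in DU145-DR. Replicate numbers did not pair the lines (same-number correlations -0.065, 0.171 and 0.05). With the replicate block 9436 genes were called. Over 177 named genes, 19 alternatives gave 3340 values: 3292 kept direction and call, 22 lost a call (16 of them under the 2-fold test), 13 gained one and 13 turned sign. Those that turned belong to genes not called: edgeR and DESeq2 gave AHNAK 0.13 and 0.15, quantile normalisation gave ENO1 -0.14 and PKM2 -0.44 (log2FC), and leaving out single libraries gave AHNAK -0.66 to 0.24, ABCC1 -0.18 to 0.01, DSG2 -0.19 to 0.06, PKM2 -0.17 to 0.21 and TUBB3 -0.11 to 0.32. EAF2, ACSL3, PPAP2A, PGAM1, ENO1 and AHNAK were called under some settings. The causes were not tested.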

Other observations

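Several further groups of neighbouring genes differed together in the controls. UGT2B15, UGT2B10, UGT2B11 and UGT2B4, enzymes that attach glucuronic acid to androgens and other steroids, were each at least 4-fold higher in 22Rv1-DR. They are consecutive among the tested genes, with genes below the filter passed over. UGT2B11 and UGT2B4 were at 0 in DU145-DR and passed the filter only through 22Rv1-DR. UGT2B15 was at 537, 198 and 124 in 22Rv1-DR with 1 read in all in DU145-DR, a ratio of 1175 (95% counting interval 210.5 to 46471). These genes are close paralogs, so how reads were split among them is uncertain. IL8, CXCL1, CXCL3 and CXCL2, chemokines that attract neutrophils, form such a run on the DU145-DR side.

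Of 27 nuclear receptor genes tested, 14 were higher in 22Rv1-DR and 10 in DU145-DR. NR3C2, the mineralocorticoid receptor, was at 384, 318 and 487 in 22Rv1-DR against 7.83, 3.56 and 11.2 in DU145-DR (log2FC 5.63 ± 0.38). NR0B1, a repressor of steroid-producing genes, had 1 read in all in 22Rv1-DR and stood at 149, 197 and 202 in DU145-DR.

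HOX genes, which record body position, were uneven: of 29 tested, 14 were higher in 22Rv1-DR, 6 were lower and 9 were not called. HOXA9 was at 138, 166 and 104 in 22Rv1-DR against 0, 0.713 and 3.46. Of 24 apoptosis regulators tested, 8 were higher in 22Rv1-DR and 7 in DU145-DR, with BMF at 2219 ± 107 against 152 ± 44.4 and BID at 55.3 ± 13.3 against 636 ± 87.4. BMF and BID both encode pro-apoptotic BH3-only proteins, and they differed in opposite directions.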
